A study of Mus musculus with 64 samples.

Results

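The hypothalamic response to psilocybin was compared between mice killed 3 h and mice killed 4 weeks after a single injection. The quantity of interest is a difference of differences, psilocybin minus saline at 3 h less psilocybin minus saline at 4 weeks, on the log2 scale. It equals the time shift after psilocybin (3 h minus 4 weeks) less the time shift after saline, so a value opposite in sign to the saline shift means that the psilocybin shift was smaller than the saline shift or had the opposite sign. Members were chosen by sample label and depth, namely all hypothalamus libraries with at least 1000000 counted reads, which gave 31 of the 64 libraries in the series. Psilocybin 4-week library 5 stood apart, and the main values are given with and without that library (31 and 30 libraries).

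All mice were chow-fed, group-housed male C57BL/6J mice, 10 weeks old when injected intraperitoneally with isotonic saline or with 3 mg/kg psilocybin, and none carried an engineered allele. The 4 groups were psilocybin 3 h (8 libraries), saline 3 h (7 libraries), psilocybin 4 weeks (8 libraries) and saline 4 weeks (8 libraries), each library being the whole hypothalamus of 1 mouse collected in the morning. Saline 3-h library 2 held 211111 reads and was left out, and the next lowest total was 8061033. Per the methods, all mice had received sham saline injections on the days before. Mice of the 4-week groups were 4 weeks older at death than mice of the 3-h groups, so a time shift holds age as well as a recent injection, and the 2 cannot be told apart. Counted reads per kept library ran from 8061033 to 33947174, and levels are given as reads per 1000000 (CPM) after TMM scaling.

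Psilocybin is converted in the body to psilocin, an agonist of serotonin receptors of which 5-HT2A is the best known in the context of psychedelic effects. Handling and injection are themselves stimuli: they raise circulating corticosterone, which acts through the glucocorticoid receptor on target genes such as Fkbp5, Sgk1 and Tsc22d3, and they excite neurons, which then transcribe immediate early genes such as Fos, Fosb and the Egr family. The hypothalamus stands at the head of this axis and also holds the neuropeptide neurons of feeding and water balance.

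Psilocybin 4-week library 5 stood apart from the other hypothalamus libraries. The SD of its log2 deviations from its group mean was 0.853, against a median of 0.246 and a maximum of 0.512 in the others, and the sample weight that voom gave it was 0.0276, against at least 0.649 in the others. Its Oxt level of 1200 CPM was also outside the 89.6 to 181 CPM of the other psilocybin 4-week libraries. Both 4-week libraries numbered 3 had high Fos levels, at 34 CPM after psilocybin and 17.8 CPM after saline, against group medians of 5.61 and 6.66 CPM. Of the 18 hypothalamus markers, all were present and 1 had a median under 1 CPM. Markers of neighbouring tissue varied between single libraries, as described with the genes concerned. In bulk tissue, fewer cells of a type and less RNA per cell cannot be told apart.

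No gene was called in the difference of differences. With library 5, 0 of 18971 genes tested (0%) had an adjusted p under 0.05 in edgeR's quasi-likelihood test, and the smallest adjusted p was 0.902. Without library 5, 0 of 18890 genes (0%) were called. DESeq2 and limma-voom with quality weights also called 0 genes, with smallest adjusted p-values of 0.0649 and 0.107. At an unadjusted p under 0.05 edgeR held 999 genes (5.27%) with library 5 and 431 genes (2.28%) without it, DESeq2 held 1050 and voom held 1094. With library 5 the 999 genes were split into 179 positive and 820 negative values, and without it the 431 genes were split into 192 and 239. The fit without that library thus held 239 negative genes in place of 820. A total of 297 genes were under 0.05 with the same sign in both fits, 112 positive and 185 negative. The same contrast in the PFC called 0 of 18971 genes, with 585 at an unadjusted p under 0.05.

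The 4 simple contrasts behind this quantity had unlike yields. Psilocybin minus saline gave 0 called genes (0%) at 3 h and 0 (0%) at 4 weeks in edgeR, with and without library 5. At an unadjusted p under 0.05 edgeR held 337 genes at 3 h and 1823 at 4 weeks, or 462 and 361 without library 5. DESeq2, with library 5, called 0 genes at 3 h and 13 at 4 weeks, and voom called 0 and 0. The time shift after saline was called in 130 genes (0.685%), and the time shift after psilocybin in 220 genes (1.16%). Without library 5 the counts were 225 (1.19%) after saline and 150 (0.794%) after psilocybin, so the order of both counts turned with 1 library. These 2 numbers do not test a difference between the shifts, which only the difference of differences does.

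To ask whether psilocybin blunted the shift seen after saline, genes were first chosen by the mean of both time shifts, which weights both treatments equally. With library 5, signing by that mean leaned toward larger psilocybin shifts over all genes tested, and without library 5 this lean was nearly absent. With library 5, 757 genes (3.99%) were called, 459 higher (2.42%) and 298 lower (1.57%) at 3 h. Their median shift, signed by the direction of the averaged shift, was 0.30 after saline and 0.33 after psilocybin on the log2 scale. The signed difference of differences had a median of 0.03, against 0.05 over all genes tested. Of the 757 genes, 313, or 41.3%, had the smaller shift after psilocybin, against 39.0% of all genes. Without library 5, 963 genes (5.1%) were called, 604 higher (3.2%) and 359 lower (1.9%). Their medians were 0.27 after saline and 0.26 after psilocybin, and the signed median was -0.0042, against -0.0028 over all genes. Of the 963 genes, 496, or 51.5%, had the smaller shift after psilocybin, against 50.9% of all genes. Within pools, where genes were called anew, the signed median was 0.0011 over 231 genes in pool A, -0.03 over 67 genes in pool B and -0.04 over 490 genes in pool B without library 5. Over all genes these medians were 0.0042, 0.12 and 0.0042. The smaller shift was after psilocybin in 49.4% of the set in pool A, against 49.1% of all genes there. In pool B it was so for 37 of the 67 genes, or 55.2%, against 33.7% of all genes. In pool B without library 5, 297 genes, or 60.6%, had the smaller shift after psilocybin, against 48.8% of all genes. For a single gene of the set called in both pools together the median standard error of the difference of differences was 0.15 with and 0.13 without library 5. A reduction of the shift common to both pools was therefore not seen in these medians. For single genes the adjustment over all genes left values of more than 3 standard errors uncalled in edgeR. The smallest difference that this design can detect was not tested.

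**Figure D1:**
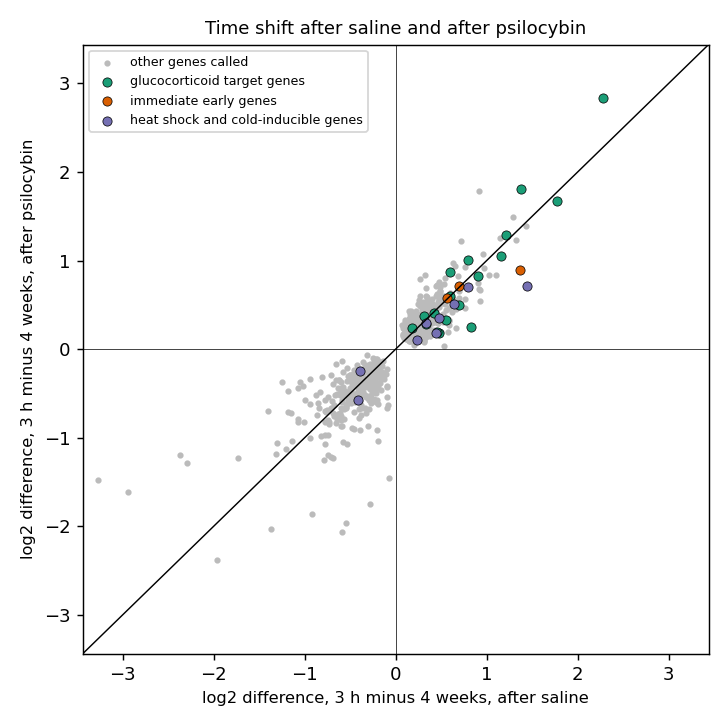
Time shift (log2 difference, 3 h minus 4 weeks) after saline on the x axis and after psilocybin on the y axis for the 757 genes called in the averaged shift, 1 point per gene, with members of 3 gene lists coloured and the line of equal shift in black. The points lie on both sides of the line, with medians of 0.30 after saline and 0.33 after psilocybin once signed by direction.

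Genes chosen by 1 treatment only gave opposite answers. Among the 130 genes called after saline, the median signed shift was 0.49 after saline and 0.34 after psilocybin. Among the 220 genes called after psilocybin, it was 0.27 after saline and 0.48 after psilocybin. Without library 5 the medians were 0.39 and 0.29 for 225 genes chosen by saline, and 0.37 and 0.44 for 150 genes chosen by psilocybin. Each set was larger in the treatment that had chosen it, a direction that the choice itself favours. The genes were therefore also chosen in 1 extraction pool and measured in the mice of the other, where pool A held the mice numbered 1 to 4 and pool B those numbered 5 to 8. Of the 200 genes with the smallest p for the saline shift in pool A, 174 moved the same way after saline in pool B and 160 after psilocybin. Their median shift in pool B was 0.25 after saline and 0.23 after psilocybin, and in 97 of 200 genes the signed psilocybin shift was below the saline shift, a count that includes shifts of opposite sign. The 200 genes chosen by saline in pool B had medians of 0.26 after saline and 0.32 after psilocybin in pool A, with 86 lower after psilocybin. Without library 5 the medians were 0.25 and 0.22 in pool B, and 0.25 and 0.27 in pool A, with 104 and 100 of 200 genes lower after psilocybin. Genes chosen by the psilocybin shift had medians of 0.26 after saline and 0.29 after psilocybin in pool B, and 0.25 and 0.30 in pool A. Without library 5 these were 0.26 and 0.20 in pool B, and 0.26 and 0.28 in pool A, so the order in pool B turned with that library.

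**Figure D2:**
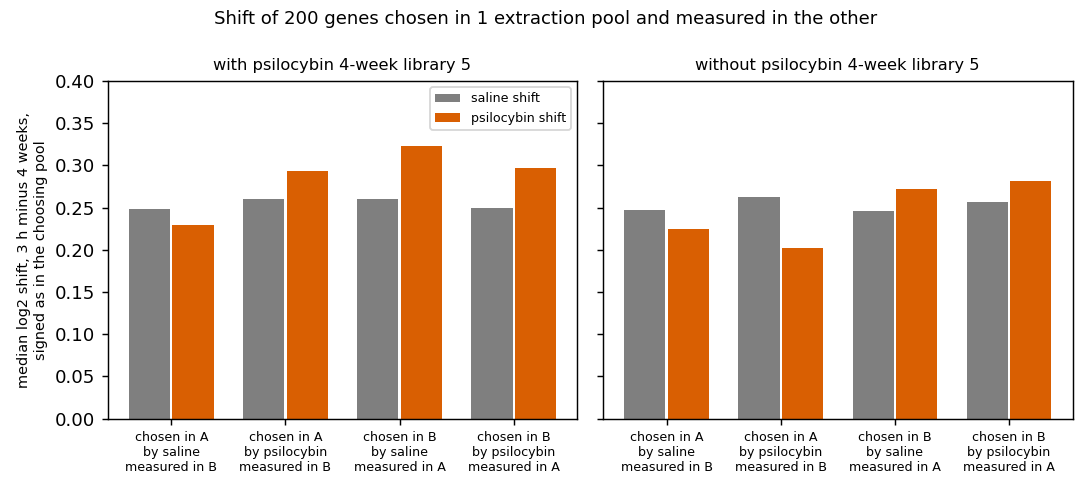
Median signed time shift (log2, 3 h minus 4 weeks) after saline (grey bars) and after psilocybin (orange bars) of 200 genes chosen in 1 extraction pool and measured in the other, with library 5 on the left and without it on the right; no error bars are drawn because genes are not replicates. The grey and orange bars of a pair differ by up to 0.06 in either direction, the largest gap being 0.26 after saline against 0.32 after psilocybin.

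Glucocorticoid target genes gave the clearest common shift, and it was present after both treatments. Of 28 members measured, 18 were called higher at 3 h in the averaged shift and 0 lower, where 3.99% of all genes were called. Without library 5 there were 20 higher and 0 lower. The list median was 0.51 after saline and 0.38 after psilocybin, and 0.52 and 0.41 without library 5. The pools differed, with 0.43 and 0.30 in pool A, 0.54 and 0.55 in pool B, and 0.55 and 0.60 in pool B without library 5. The median difference of differences was -0.05 with and -0.01 without library 5, against -0.01 and -0.0031 over all genes. Only 1 of the 28 members, Arl4d, was under an unadjusted p of 0.05 in the difference of differences in either fit. Of all genes, 5.27% were with library 5 and 2.28% without it. No member was called.

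Sgk1, a kinase that regulates ion channels and is induced by corticosteroids, had levels of 39.7 to 99.0 CPM (median 58.1) after saline and 30.9 to 98.4 CPM (median 51.7) after psilocybin at 3 h. At 4 weeks the levels were 25.7 to 45.9 CPM (median 29.0) after saline and 18.3 to 33.6 CPM (median 28.6) after psilocybin. Both 3-h groups thus lay mostly above both 4-week groups and overlapped each other. The averaged shift of Sgk1 was 1.11 ± 0.12 (SE, adjusted p = 3.8e-10) and its difference of differences was -0.10 ± 0.23, with a 95% interval of -0.57 to 0.36. Leaving out 1 library gave values from -0.30 (without psilocybin 3-h library 5) to 0.01 (without saline 3-h library 3).

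Tsc22d3, which encodes the glucocorticoid-induced leucine zipper GILZ, had levels of 103 to 170 CPM (median 155) after saline and 115 to 185 CPM (median 142) after psilocybin at 3 h. At 4 weeks it had 65.6 to 82.4 CPM (median 75.2) after saline and 67.2 to 104 CPM (median 79.4) after psilocybin. The 3-h saline group lay wholly above the 4-week saline group, and the same held after psilocybin. The averaged shift was 0.86 ± 0.07 (adjusted p = 4.4e-13), and the difference of differences was -0.08 ± 0.15 (interval -0.38 to 0.22).

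Fkbp5, a co-chaperone that dampens glucocorticoid receptor signalling, had, with library 5, the lowest unadjusted permutation p of the panel and had a larger shift after psilocybin. At 3 h its levels were 33.4 to 55.5 CPM (median 41.9) after saline and 47.9 to 61.4 CPM (median 56.2) after psilocybin. At 4 weeks they were 26.8 to 32.9 CPM (median 28.9) after saline and 27.2 to 32.5 CPM (median 30.7) after psilocybin. The 4-week groups coincided and the 3-h groups overlapped, with the psilocybin group on the higher side. The difference of differences was 0.28 ± 0.16 (interval -0.03 to 0.59, adjusted p = 0.904 by edgeR) and 0.26 ± 0.16 without library 5. When labels were permuted within time point and pool, the value was 0.30 (permutation p = 0.024, adjusted over the 26 genes of the panel p = 0.586).

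Members did not share 1 direction. Plin4, which coats lipid droplets, had the widest shift, at 2.28 after saline and 2.84 after psilocybin, with a difference of differences of 0.55 ± 0.45. Zbtb16, a transcriptional repressor, had shifts of 1.38 and 1.81. Arl4d, a small GTPase, went the other way, at 0.83 after saline and 0.25 after psilocybin, with a difference of differences of -0.58 ± 0.25 (unadjusted p = 0.023). Cables1, which links cyclin-dependent kinases to their partners, had 0.56 and 0.33, a difference of -0.23 ± 0.12. Plin4, Zbtb16 and the further list members Fosb, Fosl2, Nr4a3, Ier5l, Maob, Hspa1b and Dnajb1 were picked after their values were seen.

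**Figure D3:**
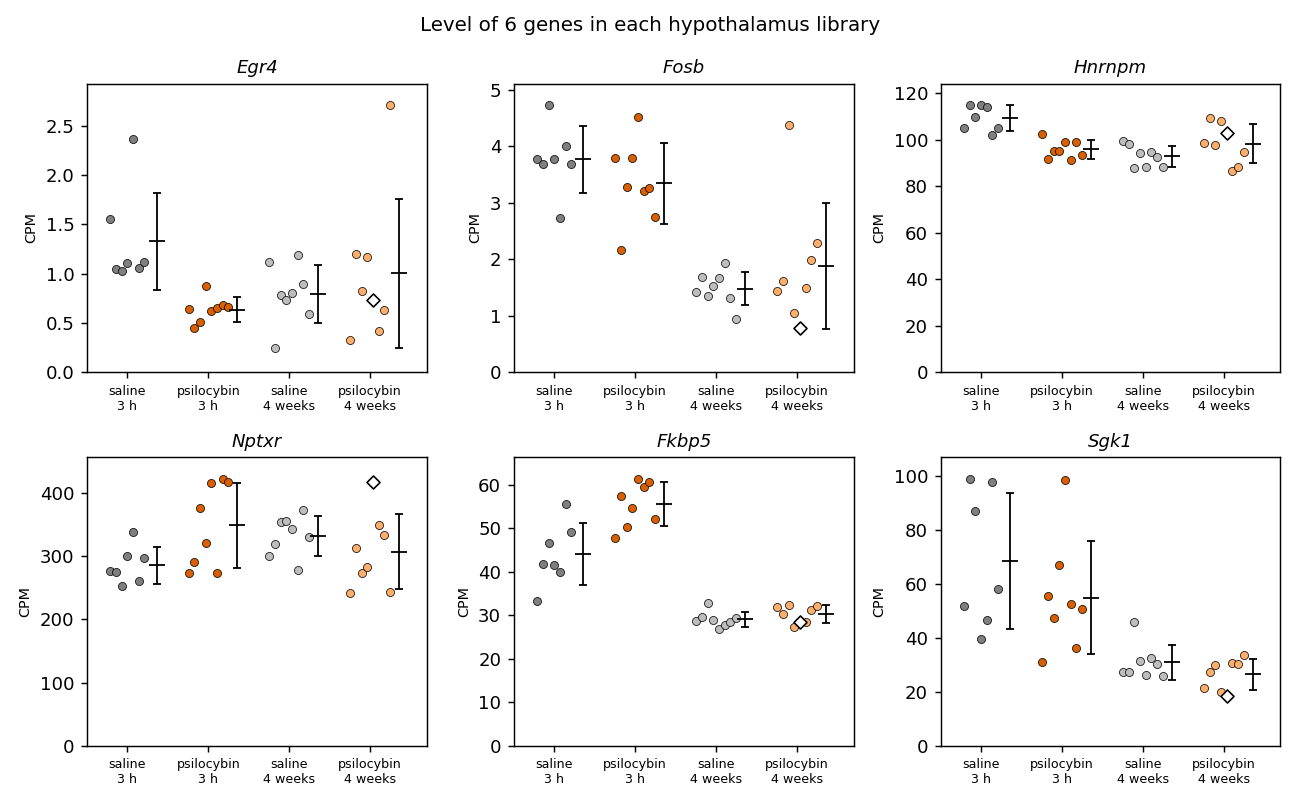
Level (CPM, linear axis from 0) of Egr4, Fosb, Hnrnpm, Nptxr, Fkbp5 and Sgk1 in each of the 31 hypothalamus libraries, 1 point per mouse, with the open diamond for psilocybin 4-week library 5 and bars for mean ± SD of each group. The 8 psilocybin 3-h libraries lie at 0.449 to 0.875 CPM for Egr4, all below the 7 saline 3-h libraries at 1.03 to 2.36 CPM, while the groups overlap at 4 weeks.

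Most immediate early genes had a difference of differences below 0, but no member was called. Of 40 members measured, 30 had a difference of differences below 0, both with and without library 5, against 52.1% and 51.0% of all genes below 0. The size of the shift, whatever its sign, was smaller after psilocybin in 20 of 40 members with and 21 of 40 without library 5, against 7401 of 18971 and 9622 of 18890 genes overall. The list median was -0.11 with and -0.14 without library 5, and the median shift was 0.19 after saline and 0.09 after psilocybin, or 0.05 without library 5. At an unadjusted p under 0.05 there were 0 positive and 4 negative members with library 5 and 1 positive and 4 negative without it (Gadd45g, a growth arrest gene, counted only with library 5, at -0.80 against -0.25, and Fosb only without it), where 0.944% and 4.32% of all genes were positive and negative with library 5, and 1.02% and 1.27% without it. These values were not even between pools or libraries. The list median was -0.19 in pool A and -0.05 in pool B, and 0.05 in pool B without library 5. Without both 4-week libraries numbered 3, the list median was -0.08 and the median shifts were 0.22 after saline and 0.22 after psilocybin.

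Egr4 (ENSMUSG00000071341.4, chr6:85511121-85513589, minus strand), a zinc finger transcription factor of the early growth response family, was the gene of this list with the smallest p. It was weakly expressed, with 3 to 63 reads per library (median 17). At 3 h its levels were 1.03 to 2.36 CPM (median 1.11) after saline and 0.449 to 0.875 CPM (median 0.647) after psilocybin. At 4 weeks they were 0.241 to 1.19 CPM (median 0.794) after saline and 0.330 to 2.71 CPM (median 0.781) after psilocybin. The 3-h groups did not overlap, which was so for 9 of the 18971 genes tested (0.0474%), and the 4-week groups did. The time shift was 0.71 ± 0.27 after saline and -0.70 ± 0.28 after psilocybin, so the 2 shifts had opposite signs and the averaged shift was 0.0042 ± 0.23. The difference of differences was -1.42 ± 0.39 (interval -2.20 to -0.63, unadjusted p = 0.00061, adjusted p = 0.904 by edgeR) and -1.51 ± 0.40 (adjusted p = 1) without library 5. It was -1.16 in pool A and -1.58 in pool B. Without psilocybin 4-week library 8, which held the highest level of its group, the value was -1.01 (unadjusted p = 0.0067). That library and saline 3-h library 6, the highest for Egr4 at 3 h, also had the highest summed striatum markers of their groups, at 840 and 672 CPM against group medians of 292 and 378 CPM. All 10 striatum markers had a difference of differences below 0, with a list median of -0.85, and the part of striatal RNA in the Egr4 value was not tested.

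Fosb (chr7:19302696-19310051, minus strand), which encodes a partner of Jun proteins in the AP-1 factor, was called in the averaged shift. At 3 h its levels were 2.73 to 4.73 CPM (median 3.77) after saline and 2.15 to 4.51 CPM (median 3.27) after psilocybin. At 4 weeks they were 0.944 to 1.93 CPM (median 1.47) after saline and 0.773 to 4.37 CPM (median 1.55) after psilocybin. All saline 3-h libraries were above all saline 4-week libraries, and after psilocybin libraries 3 and 8 of the 4-week group reached the 3-h range. The averaged shift was 1.13 ± 0.15 (adjusted p = 1.3e-07). The shifts were 1.37 after saline and 0.89 after psilocybin, and the difference of differences was -0.48 ± 0.29 (unadjusted p = 0.11), or -0.61 ± 0.28 (unadjusted p = 0.034) without library 5. Without both 4-week libraries numbered 3 it was -0.18.

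The 250 bases before the RefSeq start of Egr4 and Fosb are shown because these 2 members of the list are described in full, one with opposite shifts and one with a shift after both treatments. Both come from RefSeq on GRCm38.p6, minus strand, printed 5′ to 3′, at chr6:85513590-85513839 for Egr4 and chr7:19310046-19310295 for Fosb. The Fosb window overlaps by a few bases the gene as the files' annotation places it, which starts slightly further upstream. Capitals mark TGACG or its reverse complement CGTCA, the core of the cAMP response element that CREB binds.
Egr4: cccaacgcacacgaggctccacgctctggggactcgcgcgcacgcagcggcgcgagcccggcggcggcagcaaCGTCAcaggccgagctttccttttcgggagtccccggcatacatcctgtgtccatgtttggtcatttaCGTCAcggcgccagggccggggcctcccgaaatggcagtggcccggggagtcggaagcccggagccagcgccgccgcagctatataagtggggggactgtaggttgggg
Fosb: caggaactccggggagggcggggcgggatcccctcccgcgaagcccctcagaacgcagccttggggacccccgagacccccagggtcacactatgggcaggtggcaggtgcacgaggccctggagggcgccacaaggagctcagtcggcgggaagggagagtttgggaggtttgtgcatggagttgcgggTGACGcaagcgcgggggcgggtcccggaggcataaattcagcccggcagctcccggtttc
Egr4 held 2 matches and Fosb held 1, where 17.9% of 32536 windows of the same length held at least 1 on either strand. The full palindrome TGACGTCA, which contains that core, was in 1.6% of windows and in neither of these. A match describes letters only.

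Other early genes gave smaller or mixed values. Gadd45b, a DNA damage and growth arrest gene, had a difference of differences of -0.74 ± 0.25 with and -0.51 without library 5, and Ier5l had -0.91 and -0.64. Nptx2, a secreted pentraxin of excitatory synapses, was the 1 positive member under an unadjusted p of 0.05, at 0.47 without library 5, 0.30 with it and 0.15 without saline 4-week library 7. Fos itself had shifts of 0.63 after saline and 0.62 after psilocybin, with a difference of differences of -0.01 ± 0.52. Egr1 had 0.70 and 0.30, with a difference of -0.40 ± 0.31. Nr4a1 had -0.25 ± 0.30, Npas4 had -0.12 ± 0.30 and Dusp1, a phosphatase of MAP kinases, had 0.03 ± 0.28. Without psilocybin 4-week library 3, the Fos, Egr1 and Nr4a1 values were 0.65, -0.09 and -0.07. Fosl2 and Nr4a3 were called in the averaged shift together with Fosb and had nearly equal shifts after both treatments, at 0.70 and 0.71 for Fosl2 and 0.56 and 0.57 for Nr4a3.

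Some heat shock genes also rose at 3 h. Of 21 heat shock and cold-inducible genes, 7 were called higher and 2 lower in the averaged shift, where 2.42% and 1.57% of all genes were. Without library 5 there were 10 and 2, where 3.2% and 1.9% of all genes were called. The list median was 0.22 after saline and 0.10 after psilocybin, or 0.17 after psilocybin without library 5, and the median difference of differences was -0.14 with and -0.05 without library 5. It was below 0 in 17 of 21 members with and 15 of 21 without library 5, against 52.1% and 51.0% of all genes. The size of the shift was smaller after psilocybin in 15 of 21 members in both fits, against 7401 of 18971 and 9622 of 18890 genes overall. Hspa1b, an inducible Hsp70, had shifts of 1.44 after saline and 0.71 after psilocybin, but 1.10 after psilocybin without library 5. It has a near-identical neighbour, Hspa1a, with which reads can be shared, and Hspa1a had a difference of differences of -0.10 ± 0.36 with and 0.26 without library 5. Dnajb1, an Hsp40 co-chaperone, had 0.64 and 0.50. The cold-inducible RNA-binding genes Cirbp and Rbm3 fell by 0.50 and 0.32 in the averaged shift, and their differences of differences were -0.16 ± 0.14 and 0.15 ± 0.11.

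The genes called most firmly in the averaged shift had similar shifts after both treatments. Banp, a nuclear matrix protein that binds CG-rich motifs, had 1.10 after saline and 0.84 after psilocybin. Mfsd2a, a lipid transporter of the blood-brain barrier, had 0.96 and 1.07, and Cdkn1a, a cyclin-dependent kinase inhibitor, had 1.22 and 1.29. Among the genes lower at 3 h, Plekho2 had -0.57 and -0.48, Cd180, a receptor of the Toll-like family, had -0.74 and -0.97, Oacyl had -1.14 and -1.04 and the microRNA host gene Mir9-3hg had -0.60 and -0.66. None of their differences of differences had an unadjusted p under 0.05, with or without library 5. The first 5 higher genes also included 1 predicted gene.

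The 8 positive and 8 negative genes with the smallest p in both fits included Egr4, 4 genes with names of predicted or RIKEN transcripts, and 3 genes described with the epithalamic markers. Hnrnpm, a splicing factor, had levels of 102 to 115 CPM (median 110) after saline and 91.3 to 102 CPM (median 95.1) after psilocybin at 3 h. The 4-week levels were 88.0 to 99.6 CPM (median 93.4) after saline and 86.7 to 109 CPM (median 98.2) after psilocybin. The saline 3-h group lay above the saline 4-week group, met the psilocybin 3-h group at its lower end and overlapped the psilocybin 4-week group. The difference of differences was -0.27 ± 0.07 (unadjusted p = 0.00052, adjusted p = 0.904 by edgeR), -0.26 without library 5, -0.31 in pool A and -0.22 in pool B. It was between -0.30 and -0.25 when each library was left out in turn. Hnrnpm overlaps March2, so part of its reads could belong to the neighbour.

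Nptxr, the neuronal pentraxin receptor, ran the other way. At 3 h its levels were 252 to 339 CPM (median 276) after saline and 273 to 422 CPM (median 348) after psilocybin, and at 4 weeks 279 to 372 CPM (median 337) after saline and 241 to 417 CPM (median 298) after psilocybin. The highest psilocybin 4-week level was that of library 5. The difference of differences was 0.42 ± 0.13 with and 0.48 ± 0.13 without library 5, with 0.49 in pool A and 0.34 in pool B. Nptxr lies within the longer gene Npcd, with which it can share reads.

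Cckbr, the cholecystokinin B receptor, had levels of 8.89 to 10.8 CPM (median 9.24) after saline and 6.55 to 10.1 CPM (median 7.53) after psilocybin at 3 h. At 4 weeks it had 5.24 to 7.71 CPM (median 6.44) after saline and 5.70 to 10 CPM (median 7.4) after psilocybin. After saline the 2 time points did not overlap, whereas after psilocybin they did. Its shift was 0.54 after saline and 0.03 after psilocybin, and the difference of differences was -0.50 ± 0.15 with and -0.49 ± 0.16 without library 5.

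Further genes of this set were positive for E2f3, a cell cycle transcription factor, at 0.40 and 0.31 without library 5, and for the lipoxygenase Alox12b at 1.16 and 1.14 at levels of 0.0656 to 0.801 CPM (1 to 21 reads). They were negative for Ngef, a guanine nucleotide exchange factor of neurons, at -0.47 and -0.44, for Arhgap10, a GTPase-activating protein, at -0.67 and -0.71, and for Ripply2 at -1.03 and -0.78. The highest Ngef level after saline at 4 weeks, 112 CPM, was in library 6, and the highest Arhgap10 level after psilocybin at 4 weeks, 7.45 CPM, was in library 8. Those 2 libraries also had the highest summed level of the striatum markers in their groups, at 681 and 840 CPM against group medians of 258 and 292 CPM, and the part of striatal RNA in these values was not tested.

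**Figure D4:**
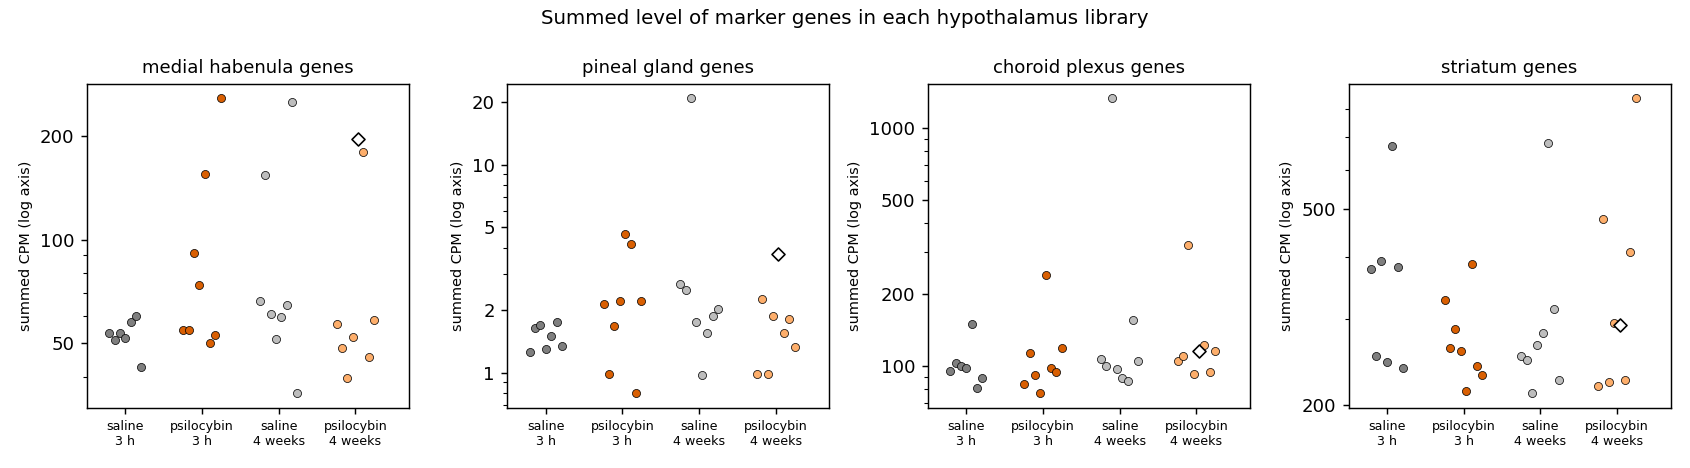
Summed level (CPM, log axis) of 4 marker lists in each hypothalamus library, 1 point per mouse, with the open diamond for psilocybin 4-week library 5. The 7 saline 3-h libraries lie between 42.7 and 60.1 CPM for the medial habenula genes, while the highest libraries of the other groups stand at 196 to 257 CPM, and saline 4-week library 3 stands at 20.9 CPM for the pineal genes and 1330 CPM for the choroid plexus genes.

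Several of the largest positive values belonged to genes of neighbouring epithalamic tissue. Gpr151, an orphan receptor typical of the habenula, had 0.936 to 3.06 CPM (median 1.54) after saline and 1.17 to 35.1 CPM (median 6.04) after psilocybin at 3 h. The 4-week levels were 2.15 to 34.8 CPM (median 3.17) after saline and 0.833 to 40.6 CPM (median 2.34) after psilocybin. Levels of 8.15 CPM or more were found in psilocybin 3-h libraries 3, 4, 5 and 8, psilocybin 4-week libraries 5 and 6, saline 4-week libraries 2 and 7 and no saline 3-h library. Its difference of differences was 3.07 ± 0.92 with and 3.73 ± 0.88 without library 5. Of 8 medial habenula genes, all 8 had a value above 0 with library 5 and 7 without it, with medians of 1.41 and 1.55. At an unadjusted p under 0.05 were 5 and 7 of them, where 0.944% and 1.02% of all genes were positive. Their summed level was 42.7 to 60.1 CPM after saline and 50.2 to 257 CPM after psilocybin at 3 h, and 35.9 to 251 CPM after saline and 39.7 to 196 CPM after psilocybin at 4 weeks. The habenula and pineal lists were written after these values were seen. Htr5b, a serotonin receptor gene, had 1.12 without and 0.85 with library 5, 0.56 without saline 4-week library 2, and its highest level at 3 h was 7.32 CPM after psilocybin against 4.02 CPM after saline.

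Tph1, the tryptophan hydroxylase of the pineal gland and the periphery, had the largest named value, 4.94 ± 1.19. It rested on saline 4-week library 3, which held 11.8 CPM, while the median of that group was 0.193 CPM and the highest level in any other hypothalamus library was 1.54 CPM. Without that library the value was 1.96 (unadjusted p = 0.023). Of the 6 pineal genes, 3 were measured and all 6 had medians under 1 CPM. The same library had the highest summed choroid plexus level, 1330 CPM against a group median of 103 CPM, and the list median of the choroid plexus genes was 0.58 with all libraries and 0.07 without both 4-week libraries numbered 3. Ptprq, a receptor phosphatase, had 2.67 and 2.84 without library 5 at levels of 0 to 1.65 CPM (0 to 35 reads). What share of these values comes from tissue at the edge of the dissection was not tested.

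The serotonin system was measured through 18 genes, of which 2 positive and 0 negative members were under an unadjusted p of 0.05 with library 5, where 0.944% and 4.32% of all genes were. Without it there were 3 positive and 1 negative, where 1.02% and 1.27% of all genes were. The positive members were Tph1 and Maob with library 5, joined by Htr5b without it, and the negative member was Htr1a. Tph1 and Htr5b are described above with the epithalamic genes, and Tph1 rested on saline 4-week library 3. The list median was 0.12 with and 0.03 without library 5. Htr2a, the receptor through which psilocin is thought to act, had 14.3 to 22.2 CPM (median 18.2) after saline and 11.1 to 23.6 CPM (median 16.6) after psilocybin at 3 h. At 4 weeks it had 10.4 to 15.6 CPM (median 13.5) after saline and 5.67 to 19.2 CPM (median 13.8) after psilocybin. Both 3-h groups lay on the higher side, and the treatments overlapped at both times. The averaged shift of Htr2a was 0.40 ± 0.12 (adjusted p = 0.036), a call lost without library 5, and the difference of differences was -0.13 ± 0.24 (interval -0.60 to 0.35), or -0.24 ± 0.23 without library 5.

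Htr1a, the inhibitory 5-HT1A receptor, had 16.3 to 25.4 CPM (median 19.6) after saline and 11.6 to 22.7 CPM (median 15.8) after psilocybin at 3 h. The 4-week levels were 13.4 to 19.4 CPM (median 18.6) after saline and 9.10 to 22.2 CPM (median 17.9) after psilocybin, the lowest being library 5. The groups overlapped at both times. The difference of differences was -0.35 ± 0.18 with library 5 and -0.44 ± 0.16 (unadjusted p = 0.0091) without it. By permutation without library 5 it was -0.44 (permutation p = 0.0047, adjusted over the panel p = 0.121), and with it -0.33 (permutation p = 0.089). Without psilocybin 4-week library 8 the edgeR value was -0.27 (unadjusted p = 0.13). Htr2c, which is abundant in feeding neurons, had 0.16 ± 0.36 with and 0.03 ± 0.34 without library 5, and Maob, which degrades amines, had 0.32 ± 0.14 and 0.30.

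Hypothalamic neuropeptides showed how far library 5 could move a list. With it, 30 of 32 members were below 0 with a median of -0.36, and without it 22 of 32 with a median of -0.18. Of all genes, 52.1% and 51.0% were below 0. In pool B without library 5 the list median was 0.04. In pool A, of which library 5 was no part, it was -0.34, with 29 of 32 members below 0 against 53.7% of all genes there. Under an unadjusted p of 0.05 there were 3 negative members (Oxt, Sst and Vgf) with library 5 and 0 without it, where 4.32% and 1.27% of all genes were. Oxt, the oxytocin gene, had -1.28 ± 0.61 with and -0.55 ± 0.48 without library 5, and Avp, the vasopressin gene, had -0.94 and -0.38. Agrp, which drives feeding, had -0.43 and 0.08, Npy had -0.19 and 0.12, and Cartpt had -0.12 and 0.21, so these 3 values changed sign with the library. Cartpt was -0.46 without psilocybin 3-h library 5, and Npy was -0.29 without psilocybin 4-week library 6. Pomc, the precursor of melanocortins, had -0.66 and -0.22, and Crh, the releasing hormone at the head of the stress axis, had -0.56 ± 0.28 and -0.41 ± 0.27. Pmch had -0.38 and -0.34, but -0.22 without psilocybin 3-h library 6, and Hcrt had -0.81 and -0.65, but -0.42 without psilocybin 4-week library 4. Trh had -0.29 and -0.18, Penk had -0.79 and -0.79 and Sst had -0.67 and -0.33. Penk is also a member of the striatum list. Its value was -0.58 without psilocybin 4-week library 8, and the part of striatal RNA in it was not tested. The 18 hypothalamus markers, of which several are these peptides, had medians of -0.42 with and -0.18 without library 5, and of -0.45 in pool A and 0.06 in pool B without library 5, and the part of dissection in the peptide values was not tested.

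Vgf, a secretory granule peptide gene induced by activity, had 189 to 222 CPM (median 211) after saline and 115 to 224 CPM (median 176) after psilocybin at 3 h. At 4 weeks it had 120 to 165 CPM (median 149) after saline and 110 to 256 CPM (median 156) after psilocybin. The saline groups did not overlap between time points and the psilocybin groups did. The difference of differences was -0.54 ± 0.23 with and -0.41 ± 0.23 without library 5.

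In the remaining lists at most 3 members had an unadjusted p under 0.05 in either fit. Receptors for feeding signals had medians of -0.0066 with and -0.08 without library 5, with 0 positive and 2 negative members, Cckbr and the melanin-concentrating hormone receptor Mchr1 (-0.36 and -0.31), under an unadjusted p of 0.05 in both fits, where 4.32% and 1.27% of all genes were negative, while Ramp3, a receptor partner, had 0.25 and 0.55. The pools went opposite ways in this list, with a median of -0.25 and 24 of 28 members below 0 in pool A, and medians of 0.15 in pool B and 0.09 there without library 5. Circadian clock genes had medians of 0.03 and 0.01 and 0 such members in either fit. With library 5, Per1 had -0.05 ± 0.17, Per2 had -0.05 ± 0.16 and Dbp had -0.22 ± 0.19, and Rora, Nr1d1 and Hlf had 0.50, 0.16 and 0.19. Without library 5, Per2 had -0.15, Dbp had -0.14 and Rora had 0.40. Per1 and Per2 had -0.0089 and -0.0019 without psilocybin 4-week library 8. Cholesterol synthesis genes had medians of 0.07 and 0.08 with Hsd17b7 at 0.44 and 0.32 and Lss, lanosterol synthase, at 0.25 and 0.16, both under an unadjusted p of 0.05 in both fits. Of 24 members measured, 10 were below 0 with library 5 and 7 without it, where 52.1% and 51.0% of all genes were. Plasticity genes had medians of 0.0018 and -0.04, with Nrn1, neuritin, at 0.50 and 0.50. Bdnf, called in the averaged shift at 0.45 ± 0.07 (adjusted p = 1.5e-06), had 0.40 after saline and 0.51 after psilocybin and a difference of differences of 0.11 ± 0.13. Hspa2 and Hspa5, of the Hsp70 family, had -0.26 and -0.20.

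**Figure D5:**
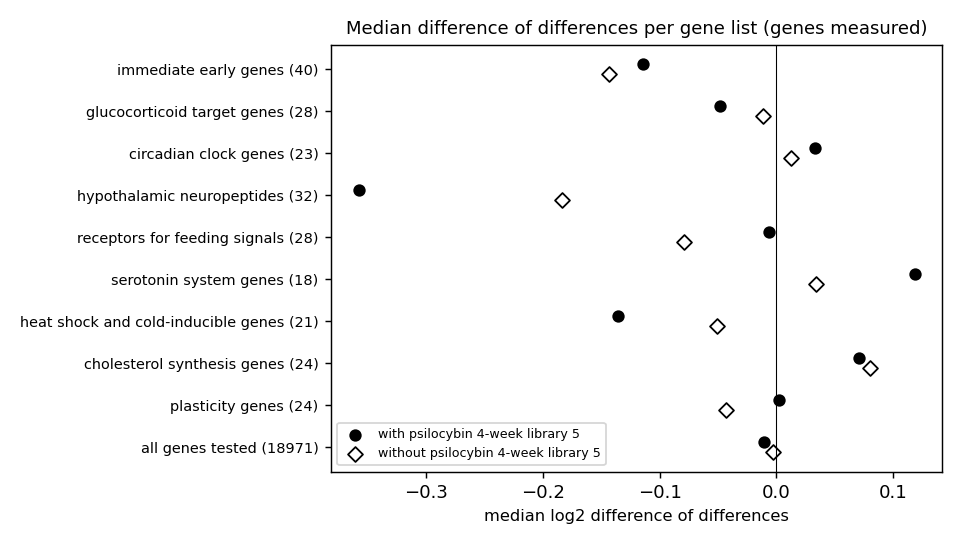
Median log2 difference of differences (x axis) of 9 gene lists and of all genes tested (y axis, number of genes measured in parentheses), with library 5 as filled circles and without it as open diamonds. The neuropeptide median moved from -0.36 to -0.18 and that of the immediate early genes from -0.11 to -0.14, while the medians of all genes were -0.01 and -0.0031.

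For the 26 genes of the panel, 0 were under 0.05 after adjustment when labels were permuted within time point and pool, with or without library 5. The smallest unadjusted permutation p was 0.024 (Fkbp5) with and 0.0047 (Htr1a) without library 5. Marker lists of other cells and regions gave medians, with and without library 5, of -0.85 and -0.86 for the striatum, where all 10 of 10 members were below 0, 0.34 and 0.45 for the thalamus, -0.23 and -0.10 for cortex and hippocampus, 0.58 and 0.53 for the choroid plexus, and -0.42 and -0.45 for the meninges. The medians were 0.15 and 0.09 for the pituitary, whose Lhb was at 0, 0.30 and 0.39 for blood, -0.02 and 0.02 for neurons, -0.04 and -0.02 for astrocytes, -0.20 and -0.08 for tanycytes and ependyma and -0.06 and -0.03 for oligodendrocytes. They were -0.04 and -0.05 for oligodendrocyte precursors, -0.20 and -0.03 for microglia, 0.07 and 0.11 for endothelium and mural cells, 0.14 and 0.01 for wound healing and immune genes and 0.06 and 0.06 for mitochondrially encoded mRNA. For endothelium and mural cells the pools went opposite ways, with a median of 0.66 and 12 of 13 members above 0 in pool A, and a median of -0.18 and 13 of 13 below 0 in pool B, or -0.31 without library 5. The medians were also opposite for oligodendrocytes, at 0.10 in pool A and -0.20 in pool B, and unequal for the thalamus, at 0.90 and 0.02. The median of the choroid plexus genes was 0.70 in pool A and -0.02 in pool B, and that of the blood genes was -0.11 and 0.55. None of these members was called in the difference of differences.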

How the data were processed

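RNA from hypothalamus and prefrontal cortex (PFC, frontal cortex in the labels) was sequenced by the authors with a stranded mRNA protocol. Per the methods and the submitters' processing notes, the authors used bcl2fastq 2.20.0, STAR 2.7.2b on GRCm38 and featureCounts 1.6.2, and deposited raw whole-number counts per gene for 64 libraries, without normalization.

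Here 62 libraries with at least 1000000 counts were fitted together in edgeR 4.0.16 (R 4.3.3) with TMM, filterByExpr (minimum count 10), group and extraction pool, a robust quasi-likelihood fit, and Benjamini-Hochberg adjustment at 0.05. limma 3.58.1 and DESeq2 1.42.0 were alternatives. Intervals are 95%. Panel genes were tested by 100000 two-sided permutations of treatment labels within time point and pool on log2(CPM + 0.5). Other alternatives were RLE scaling, other filters, no pool, single pools, the cage block and each library left out.

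The members and lists were chosen with earlier results of these data known. Genes named were the 8 positive and 8 negative with the smallest larger p over the fits with and without library 5 (same sign, p under 0.05 in both), the 3 smallest p per list without library 5, the panel, and the first 5 higher and 5 lower genes of the averaged shift. One gene that this rule names is not reported here. List members outside this rule were picked after their values were seen. The fit was tested on simulated data. Replicate and cage numbers coincide, and same-numbered libraries are different mice. Their deviations from the group and pool means correlated by 0.0045 on average. Across 105 within-group pairs the lowest chi-square per degree of freedom was 3.85, so every library was counted as its own replicate.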

Additional observations from a re-analysis of the deposited data

Results flagged for a closer look

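Dixon's test at the 95% level was run on 167 groups of libraries (each of the 4 groups for the 16 genes with the smallest p in both fits and for the panel, less 1 group in which every library was at 0), where chance flags about 1 in 20, and 33 values were far from the rest of their group. All values are in CPM.

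Psilocybin 4-week library 5 held 11 of them. It was the highest of its group for Oxt (1200), Avp (1120), Pomc (147), Cartpt (176), Npy (50.2), Agrp (26.6), Hspa1a (6.0), Ripply2 (5.27) and 2900079G21Rik (2.98), and the lowest for Htr2c (36.4) and E2f3 (12.2).

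The 4-week libraries numbered 3 held 11. After psilocybin, library 3 was highest for Fos (34), Egr1 (63.1), Nr4a1 (26.7) and Dusp1 (17.8). After saline, library 3 was highest for Fos (17.8), Egr1 (40.6), Nr4a1 (21.2), Dusp1 (19.4), Sgk1 (45.9), Fkbp5 (32.9) and Tph1 (11.8).

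Psilocybin 4-week library 8 was highest for Egr4 (2.71), Arhgap10 (7.45) and C030018K13Rik (0.56). Saline 3-h library 6 was highest for Egr4 (2.36) and Dbp (41.5), and saline 3-h library 1 for Nr4a1 (19.9) and Dusp1 (18.7). Single flags fell on Ngef in saline 4-week library 6 (112), on Hcrt in psilocybin 4-week library 4 (129), and on Cartpt in psilocybin 3-h library 5 (186) and saline 3-h library 5 (86.3).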

How the results depend on the processing

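No gene was called in the difference of differences under any alternative, which includes hypothalamus libraries alone, all 64 libraries, RLE size factors, DESeq2, voom, other filters, no extraction pool, the replicate block, single pools, and each library left out in turn (0 to 0 genes). The number of genes at an unadjusted p under 0.05 was 999 and ranged from 431 (without psilocybin 4-week library 5) to 1502 (without psilocybin 4-week library 7) when 1 library was left out. It was 1713 with no filter on low counts, 414 in pool B and 484 in pool B without library 5. With the replicate block (cage number as a term) it was 681 with library 5 and 399 without it, and the block changed no call in that contrast, while 696 genes were called in the averaged shift.

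The number of genes called in the averaged shift was 757 and ranged from 580 (without saline 3-h library 7) to 963 (without psilocybin 4-week library 5). It was 2148 with hypothalamus libraries alone without library 5, 452 with all 64 libraries, 2785 with voom and 2896 with voom without library 5, 231 in pool A, 67 in pool B and 490 in pool B without library 5. The signed median of the difference of differences over these genes was 0.03 and ranged from -0.0042 (without psilocybin 4-week library 5) to 0.06 (without psilocybin 4-week library 8) when 1 library was left out. It was -0.03 in pool B, -0.04 in pool B without library 5, -0.0069 with voom and 0.06 with no filter on low counts. For the 200 genes chosen in 1 pool, the median of psilocybin minus saline shift was 0.0073 (chosen in A) and 0.04 (chosen in B), and -0.0035 and 0.0005 without library 5. The setting without both 4-week libraries numbered 3 was added after the data were seen. Precision was limited by 7 or 8 mice per group and by low counts in genes such as Egr4.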
